A study of Homo sapiens with 4 samples.

Results

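Cadherins and protocadherins were examined in A2780/SRSF3si2 cells. This is a derivative of A2780, a human ovarian cancer line, that makes an siRNA against the splicing factor SRSF3 when doxycycline (Doxy) is added. The 10 genes are CDH1, CDH2, CDH3, CDH4, CDH6, CDH11, CDH23, PCDH1, PCDH7 and PCDH15, out of 16634 genes measured. They were read by 286 of the 261273 probe sets that the annotation pairs with a single gene symbol. The genes were selected on their difference between Doxy and No Doxy arrays and on their level without Doxy, so these values are given as a description with no test. The Doxy group holds 2 exon arrays of cells grown for 3 days with 0.1 µg/ml Doxy (SRSF3 knockdown), and the No Doxy group holds 2 arrays of the same subline grown without Doxy. Both groups carry the inducible siRNA construct. Whether the replicate arrays stand for separate cultures is not stated, so their spread, and the p-values below, may measure technical variation alone. Arrays of a control siRNA subline were not used here, so the effects of Doxy itself and of SRSF3 knockdown cannot be told apart. An exon array reads an exon, or part of it, with a probe set of its own, and the deposited value is a log2 signal, so that a difference of 1 is a doubling. A gene value is the mean log2 signal of the probe sets of the gene.

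Cadherins are membrane proteins that bind one another between cells in the presence of calcium. Classical cadherins and type II cadherins attach through catenins to the actin cytoskeleton at adherens junctions, and E-cadherin (CDH1) is the main one in epithelia, whereas N-cadherin (CDH2) is common in mesenchymal and neural cells. Protocadherins have related extracellular repeats but other cytoplasmic tails. PCDH15 and CDH23 pair end to end to form the tip links of hair cells in the inner ear. A2780 cells come from an ovarian tumour, and ovarian surface epithelium is known to make N-cadherin.

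The sequence shown is that around the annotated starts of PCDH15, since its probe sets had the widest range of differences among the 10 genes. The start windows used here (GRCh38.p14) covered 6 of the 10 genes, in 11 windows, each of 250 bases before and 50 bases after the start. They held no window of CDH1, CDH3, CDH6 or CDH11, so these genes were not searched. PCDH15 lies on the minus strand of chromosome 10 and has a window at each of 2 starts, printed 5′ to 3′ on the gene's strand. Capitals mark the E-box letters CACCTG or their reverse complement CAGGTG, which repressors of the SNAI and ZEB families are known to bind in CDH1.
PCDH15 window at chr10:54801182-54801481: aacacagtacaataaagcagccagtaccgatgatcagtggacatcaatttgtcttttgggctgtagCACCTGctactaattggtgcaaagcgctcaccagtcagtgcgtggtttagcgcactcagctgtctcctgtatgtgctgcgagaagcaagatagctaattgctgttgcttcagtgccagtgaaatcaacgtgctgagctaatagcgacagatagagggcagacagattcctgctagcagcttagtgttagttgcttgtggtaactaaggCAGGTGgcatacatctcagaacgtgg
PCDH15 window at chr10:55627893-55628192: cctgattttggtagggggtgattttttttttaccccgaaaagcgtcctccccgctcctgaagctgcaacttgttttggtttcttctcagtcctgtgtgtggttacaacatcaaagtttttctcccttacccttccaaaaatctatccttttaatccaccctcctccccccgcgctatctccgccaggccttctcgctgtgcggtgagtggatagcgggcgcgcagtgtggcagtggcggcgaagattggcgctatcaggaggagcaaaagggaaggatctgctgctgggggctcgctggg
The window at the lower coordinate, which on the minus strand is the downstream start, held 2 E-boxes and the other held 0. Over all 35116 windows of this length in the table, searched on both strands, 20.6% held an E-box, 11.5% the letters TATAAA and 45% the letters GGGCGG. Neither of the last 2 motifs was in either PCDH15 window. Of the 11 windows, which come from 6 of the 10 genes, 4 held an E-box. A match is a description of letters and not a binding site.

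Before the genes are described, the state of the arrays is given. SRSF3, the targeted gene, had gene values of 7.84 and 7.97 in the Doxy arrays, against 8.50 and 8.33 in the No Doxy arrays. The paper reports, by qPCR and western blotting, that Doxy lowered SRSF3 in this subline. In the array values of SRSF3, both Doxy arrays were lower, and the difference of -0.51 (standard error 0.18) did not pass limma's test (adjusted p = 0.129). With the arrays centred on their medians its adjusted p was 0.0376 and with quantile normalization 0.0474, in a range up to 0.710 over 14 alternatives. The array medians were between 5.04 and 5.38, the highest being Doxy replicate 2, and centring the arrays lowered every difference by 0.16. Of all genes, 943 (5.67%) were called higher in Doxy arrays and 282 (1.70%) lower, where called means an adjusted p from limma under 0.05. The higher genes were 77% of the calls, 49% with centred arrays and 59.7% with quantile normalization. As for the label of the cells, 7 of 8 ovarian epithelial markers were measured (EPCAM, KRT8, KRT18, KRT19, PAX8, WT1 and CDH1), and their mean gene values were 5.27 and 5.14 in Doxy arrays and 4.87 and 4.78 in No Doxy arrays. This mean holds CDH1 (difference 0.93), selected on this contrast, and EPCAM (2.10). KRT18 (0.55) and PAX8 (0.28) were also higher, and KRT19 (-0.81), KRT8 (-0.38) and WT1 (-0.01) were lower. No rise of the markers as a set is read from it. The 3 measured leukocyte markers ran from 1.99 to 4.08 in Doxy arrays and from 2.23 to 4.43 in No Doxy arrays, and the 5 endothelial markers from 2.27 to 3.81 in Doxy arrays and from 2.47 to 3.92 in No Doxy arrays. None of these 8 was called (0 at an unadjusted p under 0.05 by limma). The smallest unadjusted p from limma was 0.0553 for CD3E among leukocyte markers (difference 0.42) and 0.21 for TEK among endothelial markers (difference -0.24). Of 5 fibroblast markers, the proteoglycan genes DCN and LUM were bright in every array, and their part in the results below was not tested.

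CDH1 was higher with Doxy and had the largest difference of the 10 genes. Its gene value was 4.60 and 4.07 in Doxy arrays, against 3.32 and 3.50 in No Doxy arrays. The lower Doxy array thus lay above the higher No Doxy array by 0.569, and Doxy replicate 1 was the higher of the Doxy arrays. The difference was 0.93 (standard error 0.22), a fold of 1.9, from means of 4.34 ± 0.37 with Doxy and 3.41 ± 0.13 without (SD, n = 2 arrays each). Over 12 alternatives it lay between 0.66 without Doxy replicate 1 and 1.19 without Doxy replicate 2. Among these 12, here and for the other genes of the 10, some cannot change the difference of a gene. These are at least 1 or 5 probe sets and the replicate block, and nothing on stability is read from them. CDH1 was the 1 gene of the 10 that was called higher, and 0 were called lower, where 5.67% and 1.70% of all genes were. The count was 0 with the median of probe sets, median polish, at least 1 probe set, quantile normalization, the methods' t-test and each array left out (1 or 2 of the 10 had an unadjusted p under 0.05 in each). As the genes were selected on this contrast, nothing is read from these counts.

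The CDH1 difference was spread over the gene. Of its 21 probe sets, 11 had both Doxy arrays above both No Doxy arrays (here called higher) and 0 had both below (called lower), against 26.4% and 19.0% of all probe sets, and the longest row of consecutive higher probe sets in id order was 4. The differences ran from -0.88 to 2.48 with a median of 0.93, and 10 were over 1. Probe set 3666430 read 5.02 and 3.85 in Doxy arrays, against 1.90 and 2.01 in No Doxy arrays, a difference of 2.48. Probe set 3666433 read 5.62 and 3.83 with Doxy, against 1.93 and 2.57 without, a difference of 2.47. These were dim without Doxy, whereas probe set 3666411 was bright in all arrays, at 8.82 and 8.61 with Doxy, against 8.37 and 6.99 without. Doxy replicate 1 was above Doxy replicate 2 in 14 of the 21 probe sets. Probe set 3666427 read 5.88 and 4.23 with Doxy and 3.25 and 2.92 without, and shows the same order of arrays.

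**Figure D1:**
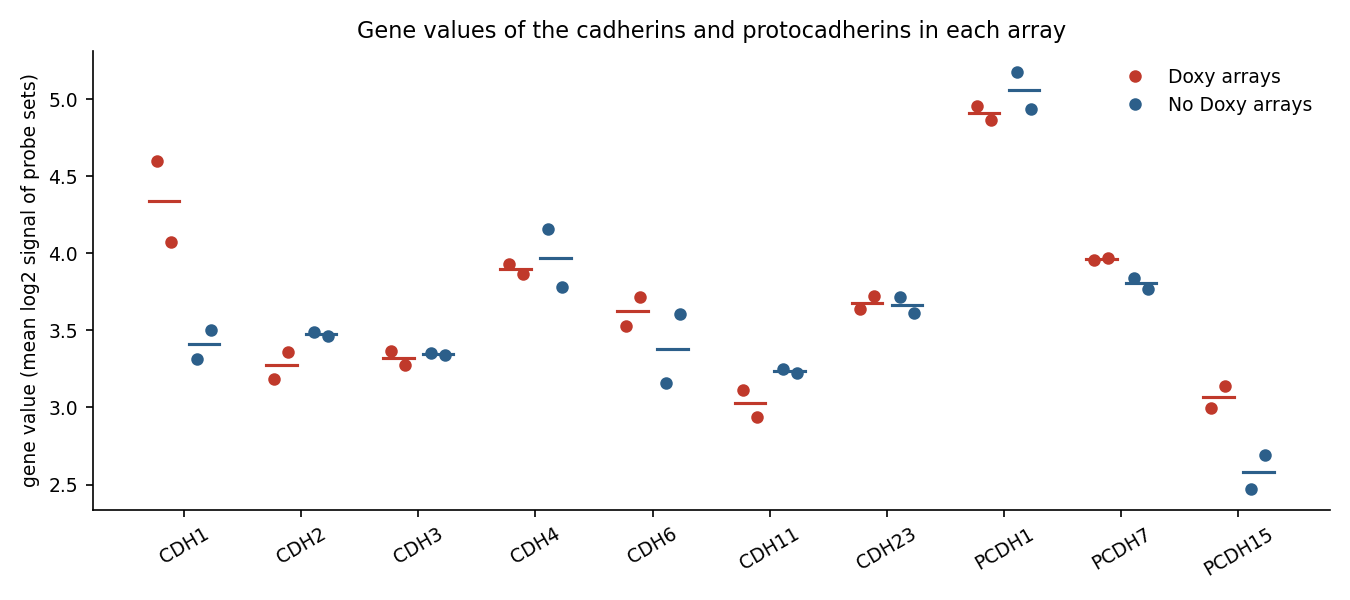
Gene value (mean log2 signal of the gene's probe sets) of each of the 10 genes, with 2 Doxy arrays at the left and 2 No Doxy arrays at the right of each gene, and lines at the group means. The Doxy points of CDH1 (4.60 and 4.07) lie above its No Doxy points (3.32 and 3.50), and 5 genes overlap.

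CDH2, the N-cadherin gene, was slightly lower with Doxy, at 3.19 and 3.36, against 3.49 and 3.47 without. The groups did not overlap, by a gap of 0.102, but the difference of -0.20 was near its standard error of 0.17. Of its 21 probe sets, 1 was higher and 3 were lower in both Doxy arrays, and all differences lay between -0.86 and 0.65. The CDH2 gene values lay within the range of the leukocyte markers, 1.99 to 4.08 with Doxy and 2.23 to 4.43 without. Whether CDH2 is expressed above background was not tested.

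CDH3, the P-cadherin gene and the neighbour of CDH1 on chromosome 16, had overlapping groups, at 3.37 and 3.28 with Doxy, against 3.35 and 3.34 without. Its difference was -0.03 (standard error 0.17) and changed sign in 3 of 12 alternatives. Single probe sets moved both ways, 5 higher and 4 lower of 21. Probe set 3666381 read 4.33 and 3.90 with Doxy, against 2.66 and 2.18 without (1.70). Probe set 3666387 read 3.62 and 2.86 with Doxy, against 3.72 and 5.77 without (-1.50), and its No Doxy arrays were far apart.

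CDH4, the R-cadherin gene, also overlapped, at 3.93 and 3.87 with Doxy, against 4.16 and 3.78 without (-0.07, standard error 0.19). Of its 20 probe sets, 1 was higher and 4 were lower. The widest difference, 1.43 in probe set 3892184, came with overlapping arrays of 6.0 and 6.29 with Doxy and 6.97 and 2.46 without.

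The type II cadherin genes CDH6 and CDH11 differed in opposite directions. CDH6, a cadherin of kidney and ovarian tumours, had 3.53 and 3.72 with Doxy, against 3.16 and 3.61 without (0.24, standard error 0.21), with overlapping groups. Of its 22 probe sets, 6 were higher and 0 were lower. Probe set 2805110 read 3.76 and 4.52 with Doxy, against 2.53 and 3.31 without (1.22), and 2805123 read 4.41 and 4.92, against 3.0 and 3.98 (1.17). In both the lower Doxy array was less than 1 above the higher No Doxy array. CDH11, a mesenchymal and osteoblast cadherin, had 3.12 and 2.94 with Doxy, against 3.25 and 3.22 without (-0.21, standard error 0.17), without overlap by 0.108. Of its 22 probe sets, 1 was higher and 6 were lower, and the lowest, 3694668, read 4.47 and 3.48 with Doxy, against 4.97 and 5.31 without (-1.17).

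PCDH15 had the second largest difference of the 10 gene values, and its probe sets split by position in the id order. The gene value was 3.0 and 3.14 with Doxy, against 2.47 and 2.69 without. The groups did not overlap, by 0.307, and the difference was 0.49 (standard error 0.18), a fold of 1.4. The gene value averages probe sets that moved differently, as its difference was -0.14 when the median of the probe sets was taken, 0.09 by Tukey's median polish and 2.06 when the dimmest 25% of probe sets were left out. Of its 50 probe sets, 16 were higher in both Doxy arrays, 13 were lower and 21 overlapped, with differences from -1.46 to 3.60.

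PCDH15 probe sets were divided at the end of their longest run of consecutive higher ones, so these same values set the division. This run was the first 15 in id order, 3289963 to 3289977, which are all higher by that choice. Their mean was 5.43 and 6.17 with Doxy, against 3.41 and 3.63 without. The difference was 2.28, a fold of 4.86, from group means of 5.80 ± 0.52 and 3.52 ± 0.16 (SD, n = 2 arrays each). Doxy replicate 2 was above Doxy replicate 1 in all 15. Single differences ran from 0.71 to 3.60, with 13 over 1, 10 over 2 and 3 over 3. Probe set 3289965 read 5.41 and 6.03 with Doxy, against 1.66 and 2.58 without, the largest difference at 3.60. Probe set 3289964 read 5.39 and 6.23, against 2.49 and 2.57 (3.28). The sizes at such dim signals are not well measured, but the run also held brighter probe sets. The brightest, 3289967, read 8.99 and 9.41 with Doxy, against 6.20 and 6.65 without (2.77). Probe set 3289968 read 7.12 and 7.61 with Doxy, against 5.34 and 2.98 without (3.21), with No Doxy arrays far apart. The last pair of the run had the smallest differences: 3289976 read 2.08 and 2.09 with Doxy, against 1.18 and 1.57 without (0.71), and 3289977 read 2.64 and 2.79, against 1.46 and 2.25 (0.86).

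**Figure D2:**
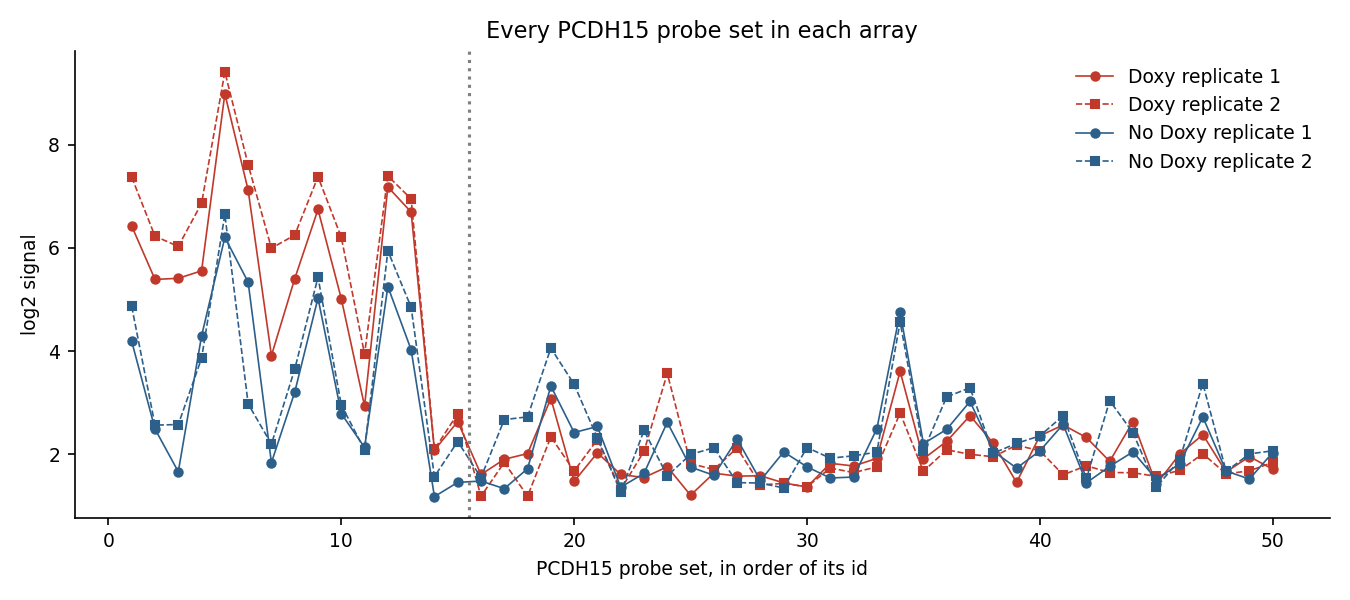
Log2 signal of every PCDH15 probe set in id order in each of the 4 arrays, with red for Doxy and blue for No Doxy and a dotted line after the first 15. The line marks the end of the longest run of higher probe sets. By that choice the red points lie above the blue ones in all 15 to its left. To its right most of the 35 probe sets are dim in every array.

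The other 35 PCDH15 probe sets, 3289979 to 3290062, averaged 1.96 and 1.84 with Doxy, against 2.07 and 2.29 without, a difference of -0.28. Of these, 1 was higher, 13 were lower and 21 overlapped, and none differed by over 1 upwards. Most were dim in every array. Probe set 3290016, the brightest of them without Doxy, read 3.61 and 2.80 with Doxy, against 4.76 and 4.57 without (-1.46), and lay within 5 consecutive probe sets that were all lower. Probe set 3289987 read 1.48 and 1.68 with Doxy, against 2.42 and 3.36 without (-1.31). With an array left out, the mean difference of the run lay between 1.92 without Doxy replicate 2 and 2.65 without Doxy replicate 1. In centred arrays the run differed by 2.12 and the rest by -0.45.

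The probe set ids follow the order of genes along chromosome 10. Spearman's rho was 0.95 over 277 genes on the plus strand and 0.98 over 276 on the minus strand (genes are not independent replicates). The order within PCDH15 and the exons read were not tested, so where the run lies relative to the printed starts is not known. PCDH15 was the 1 gene of the 10 called by diffSplice, limma's test of whether the probe sets of a gene change unequally, where 2.46% of all genes were called, and nothing is read from that. Among the other cadherin superfamily genes and the other 9, 94 in all, the pattern over the 4 arrays most like that of PCDH15, by Euclidean distance after each gene was centred, was that of PCDHGC4 (distance 0.102), followed by PCDHB15 (0.186) and FAT1 (0.254). PCDHGC4 had 2.65 and 2.69 with Doxy, against 1.98 and 2.27 without. It has 2 probe sets, both left dim by these values. The 6 probe sets that the annotation shares between PCDHGC4 and PCDHGA12 had a median difference of -0.57, with 0 higher and 2 lower. The distance used the gene value of PCDH15, which averages its run and the rest, so no likeness to the run is read from it. PCDHB15 had 4.45 and 4.44, against 3.66 and 4.06, and FAT1 had 7.64 and 8.04, against 7.45 and 7.59.

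CDH23, which pairs with PCDH15 in the tip link, did not differ in its gene value beyond the spread, at 3.64 and 3.72 with Doxy, against 3.72 and 3.61 without (0.01, standard error 0.17). Of its 74 probe sets, 12 were higher, 10 were lower and 52 overlapped, and no more than 2 consecutive ones were higher or lower. Differences ran from -1.13 to 1.37. The highest, 3251149, read 5.18 and 5.57 with Doxy, against 4.56 and 3.45 without. Of 10 other tip link and mechanotransduction genes, 0 were called by limma (1 had an unadjusted p under 0.05), with a median difference of 0.02. The smallest p was that of CIB2, which codes for a calcium-binding protein, at 4.73 and 5.09 with Doxy and 4.43 and 4.06 without (0.67, adjusted p = 0.104).

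The protocadherins PCDH1 and PCDH7, which are not in gene clusters, had small differences. PCDH1, an adhesion protein of airway epithelium, had 4.95 and 4.87 with Doxy, against 5.18 and 4.94 without (-0.15, standard error 0.18), with overlap. Of its 18 probe sets, 5 were higher and 4 were lower, and the median of their differences was 0.16, opposite in sign to the gene value. When the median of the probe sets was taken in each array, however, the PCDH1 difference was -0.25, and by median polish it was 0.01. The lower ones included 2878962, at 2.90 and 3.67 with Doxy, against 4.40 and 4.92 without (-1.38), 2878949 (-1.35) and 2878956 (-1.35). PCDH7 had 3.96 and 3.97 with Doxy, against 3.84 and 3.77 without (0.16, standard error 0.17), and did not overlap by 0.118. Of its 17 probe sets, 3 were higher and 2 were lower. The 2 highest were neighbours in id order. Probe set 2722837 read 4.92 and 4.82 with Doxy, against 3.51 and 3.59 without (1.32), and 2722838 read 5.94 and 6.27, against 4.38 and 5.25 (1.30).

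**Figure D3:**
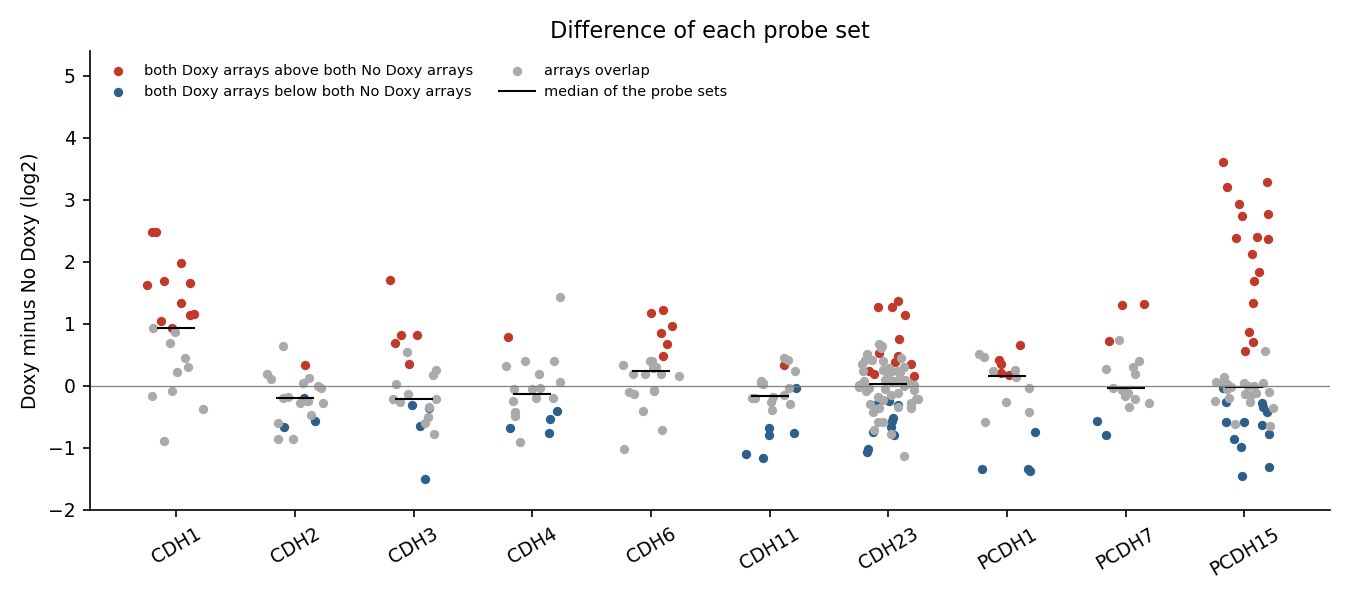
Doxy minus No Doxy difference (log2) of each of the 286 probe sets by gene, with red where both Doxy arrays are above both No Doxy arrays, blue where both are below, grey where they overlap, and a black line at the median. CDH1 has 11 red and 0 blue points, and PCDH15 has 16 red points up to 3.60 and 13 blue ones.

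Over the 10 genes, the differences of the gene values ran from -0.21 to 0.93 with a median of -0.01, beside 0.03 over all genes, and 0 of the 10 passed 2-fold. Both Doxy arrays were above both No Doxy arrays in 3 genes and below in 2, while 5 overlapped. Over all genes measured, 30.5% were above and 21.8% below. Of the 286 probe sets, 61 were higher and 46 were lower. Over all probe sets with 1 symbol, 26.4% were higher and 19.0% lower. The order of the differences was CDH1, PCDH15, CDH6, PCDH7, CDH23, CDH3, CDH4, PCDH1, CDH2 and CDH11, and neighbours from CDH6 onwards differed by less than the standard errors. The sign turned in at least 1 of 12 alternatives in CDH3, CDH4, CDH23, PCDH1, PCDH7 and PCDH15. Without Doxy, the gene values of all the 10 genes but PCDH1 lay within the range of the leukocyte markers, 2.23 to 4.43. With Doxy that range was 1.99 to 4.08, and only PCDH1 and CDH1 in Doxy replicate 1 (4.60) lay above it. Whether genes at this level are expressed above background was not tested, so small differences are not read as changes of expressed genes.

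Of 104 other listed genes of the cadherin superfamily, 85 were measured, and 1 was called higher and 1 lower, where 5.67% and 1.70% of all genes were. With centred arrays 11 were called, all lower, and with the replicate block 8, of which 7 were lower. The median difference was -0.14, beside 0.03 over all genes. CDH10, a type II cadherin of the brain, rose to 8.58 and 8.81 with Doxy, against 7.77 and 8.02 without (0.79, adjusted p = 0.0453 from limma), a call that ended in 10 of 14 alternatives. PCDHGC3, of the gamma cluster, fell to 4.07 and 4.66, against 5.75 and 5.47 without (-1.24, adjusted p = 0.0243). It has 2 probe sets, and clustered protocadherins share exons and near-identical copies, so its value is uncertain, and the call ended in 5 of 13 alternatives. The 6 probe sets that the annotation shares between PCDHGC3 and PCDHGA12 were left out of this value. They did not fall, with 2 higher, 0 lower and a median difference of 0.16. The 38 measured clustered genes had a median of -0.39, and both Doxy arrays were below both No Doxy arrays in 20 of them and above in 3, where 21.8% and 30.5% of all genes were. None of the 85 was called by diffSplice. In the lists with no call, the smallest p was that of CDH15, CDH16, DSG3, PCDH10, FAT4 and CLSTN3, all with an adjusted p from limma of 0.244 or more. Their differences were -0.18, -0.25, -0.23, 0.17, 0.36 and 0.39 in that order.

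Among genes listed as junction partners, 57 of 61 were measured. They hold 19 catenins and cytoplasmic partners, 5 nectins, 9 sheddase and turnover genes and the 10 tip link genes above. The other 14 are listed regulators of cadherin transcription, so the counts cover more than junction proteins. Of the 57, limma called 1 higher and 1 lower and diffSplice called 3. Of all genes, 5.67%, 1.70% and 2.46% were called. The median difference of the 57 was 0.02. CTNNAL1, an alpha-catenin-like protein, rose to 6.81 and 7.44 with Doxy, against 5.70 and 6.08 without (1.24, adjusted p = 0.0292 from limma). NCSTN, a subunit of the gamma-secretase that cuts cadherins, fell to 5.80 and 6.15, against 6.94 and 6.93 (-0.96, adjusted p = 0.0273). Within NCSTN, probe set 2363090 went the other way, by 1.41 against a median of -1.08 for the others (adjusted p = 1.5e-05 from diffSplice). CTNND1, p120-catenin, which keeps cadherins at the membrane, was not called as a gene, but probe set 3331590 read 5.19 and 5.37 with Doxy, against 6.64 and 7.62 without, while the median of its others was 0.47 (adjusted p = 0.00596). PKP4, its relative, had probe set 2511889 at 5.13 and 5.45, against 2.11 and 2.63, beside -0.45 for the others (adjusted p = 0.00895). Both of these splicing calls ended without Doxy replicate 1 and without Doxy replicate 2 (adjusted p = 1 for each), that of CTNND1 also without No Doxy replicate 2 (0.148), and that of NCSTN without Doxy replicate 1 (0.164) or 2 (0.0519). The limma calls of CTNNAL1 and NCSTN each ended in 6 of 14 alternatives.

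Of the 14 genes listed as regulators of cadherin transcription, 0 were called by limma (3 had an unadjusted p under 0.05). The list also holds the splicing regulators ESRP1 and ESRP2, and ESRP1 was 1 of these 3 (difference -0.82, adjusted p = 0.0721 from limma). SNAI2, a repressor of CDH1, had 5.52 and 6.27 with Doxy, against 4.93 and 4.88 without (0.99, adjusted p = 0.0554), and passed in 6 of 14 alternatives. Of 5 nectin genes 0 were called (1 at an unadjusted p under 0.05), and NECTIN2 had the smallest p (difference 0.60, adjusted p = 0.0946 from limma). Among the markers, EPCAM, an epithelial adhesion protein, rose to 6.31 and 6.24, against 4.19 and 4.16 (2.10, adjusted p = 0.00298), the 1 call among the 6 epithelial markers other than CDH1. Among the keratin genes, KRT19 had a difference of -0.81 and KRT8 of -0.38, both with the Doxy arrays below, and KRT18 had 0.55 with them above, and none was called. PAX8 had 0.28 and WT1 -0.01. LUM, the 1 call among 5 fibroblast markers, rose to 9.16 and 9.29, against 8.52 and 8.36 (0.79, adjusted p = 0.039). PDGFRB (0.47) and COL1A1 (0.22) also had both Doxy arrays above, whereas COL1A2 (-0.12) and DCN (-0.08) had both below, and none of these 4 was called. VIM, the mesenchymal vimentin gene, had 10.6 and 10.6 with Doxy, against 10.0 and 9.69 without (0.73, adjusted p = 0.0572), and was called by diffSplice, with probe set 3237003 at 6.02 and 5.94, against 3.13 and 1.42 (adjusted p = 2.1e-05), a call that ended without Doxy replicate 1 (0.931) or 2 (0.764). Leaving out either No Doxy array ended every limma call named here, since 0 genes were then called in all (3079 without No Doxy replicate 1 and 2571 without No Doxy replicate 2 had an unadjusted p under 0.05). Leaving out Doxy replicate 1 also ended those of CDH10 (0.0709), PCDHGC3 (0.0675), NCSTN (0.0820) and LUM (0.0740), and leaving out Doxy replicate 2 those of CDH10 (0.185), CTNNAL1 (0.124), NCSTN (0.0661) and LUM (0.151).

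**Figure D4:**
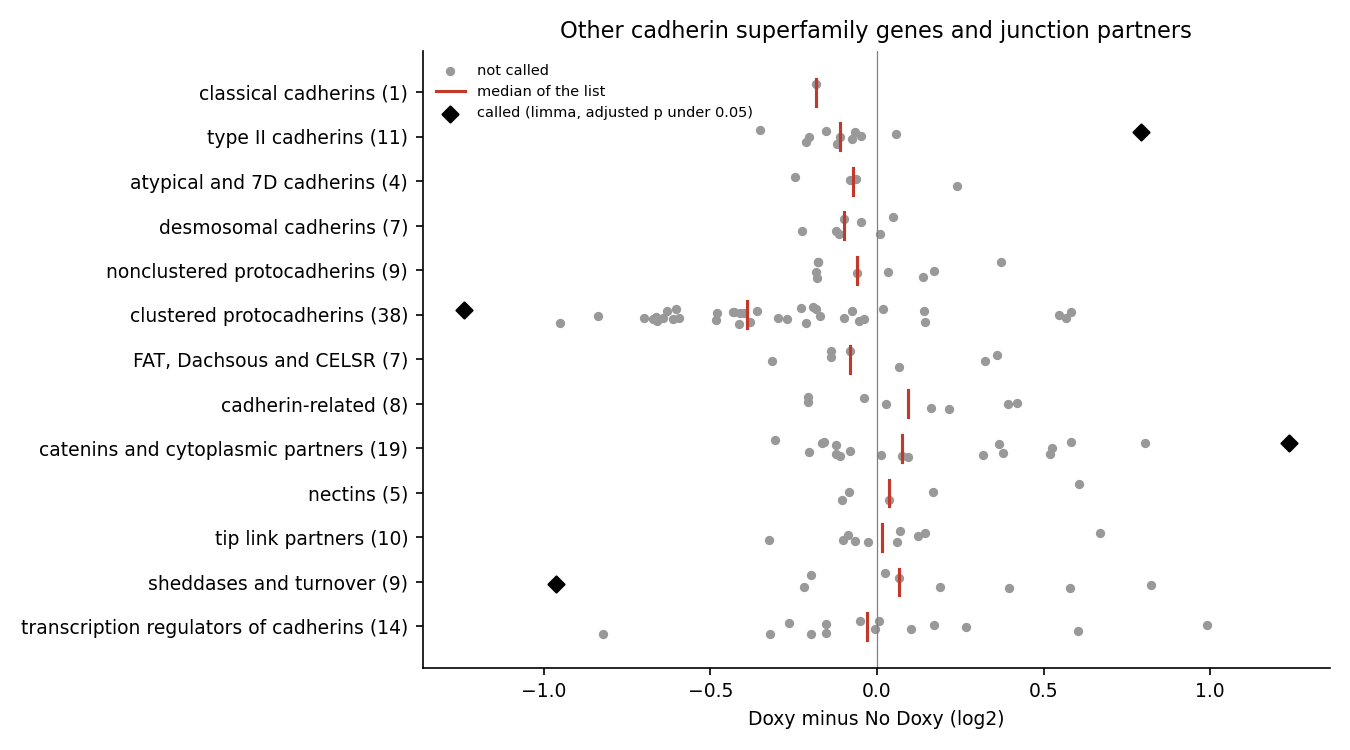
Doxy minus No Doxy difference (log2) of other cadherin superfamily genes and junction partners by list, each with its number of measured genes, called genes as black diamonds and the list median as a red line. The 4 called genes are CDH10 (0.79), PCDHGC3 (-1.24), CTNNAL1 (1.24) and NCSTN (-0.96).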

How the data were processed

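RNA of A2780/SRSF3si2 cells was read on 4 Affymetrix exon arrays, 2 per group, grouped by the sample labels. The deposited log2 values were made by the authors by the RMA method of Expression Console on core exon probe sets (version, options, genome build and centring across arrays: not given in the sources used here). Partek 6.6 is named in the submitters' processing notes. Values ranged from 0.7 to 14.5. Probe sets with 1 symbol were used, and 9155 with several and 16901 with none were set aside. RefSeq (GRCh38.p14) held 14546 of the 16941 symbols as current and updated 2276, and 119 were kept. Gene values were tested by limma 3.58.1 in R 4.3.3 for genes with at least 2 probe sets, with Benjamini-Hochberg adjustment over all 16634 genes, and splicing by diffSplice, at an adjusted p under 0.05. The number of arrays limits the precision.

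The members and lists were chosen with earlier results of these data known. Named genes are the 10 genes, SRSF3, up to 4 called genes of each list by smallest p (or else the 1 with the smallest p), up to 4 listed genes called by diffSplice, and the 3 genes most like PCDH15. Alternatives were the median or Tukey's median polish of probe sets, the dimmest 25% left out, at least 1 or 5 probe sets, centred or quantile normalized arrays, a replicate block, a trended and robust prior, diffSplice's Simes test, the methods' t-test and each array left out. For the 10 genes, the prior, block and t-test alternatives were added after seeing the data, as were the alternatives for single list genes. The scripts were tested on simulated data. Python 3.11.15 with matplotlib 3.10.9 made the plots.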

Additional observations from a re-analysis of the deposited data

How the results depend on the processing

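Against 1225 genes called by limma, 240 were called with the median of probe sets, 764 with median polish, 786 without the dimmest probe sets, 1872 with centred arrays, 2421 with a replicate block and 0 by the methods' t-test (2328 at an unadjusted p under 0.05), and 0 to 680 with an array left out. Of the wider superfamily, 2 were called, against 0 with the median (8 at an unadjusted p under 0.05), 1 without dim probe sets, 1 with at least 1 probe set, 11 with centred arrays (0 higher), 7 with quantile normalization, 4 with the trended prior, 8 with the block, 0 by the t-test (13 unadjusted) and 0 to 1 with an array left out. Of the junction partners, 2 were called, against 0 with the median (9 unadjusted), 1 with median polish, 5 with at least 5 probe sets, 5 with centred arrays, 4 with quantile normalization, 4 with the trended prior, 7 with the block, 0 by the t-test (7 unadjusted) and 0 to 4 with an array left out. Of the 10 cadherins and protocadherins, 1 was called, against 0 with the median, median polish, at least 1 probe set, quantile normalization and the t-test (1 or 2 at an unadjusted p under 0.05) and 0 to 0 with an array left out. Splicing calls were 409, against 892 by the Simes test and 20 to 4013 with an array left out. The PCDH15 probe sets over 1 numbered 13, and 12 to 14 with an array left out. The cause of these shifts was not tested. With an array left out, the remaining one of its group is taken to vary as the other group does. No label describes the replicate numbers as pairs. Deviations of arrays with the same number had a correlation of 0.127 (2 pairs), so the replicate block rests on no shown pairing.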

Other observations

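Probe sets that the annotation pairs with several symbols were left out of the gene values. Of these, 108 name a cadherin superfamily gene, and 19 were higher and 26 lower in both Doxy arrays, with a median difference of 0.05. The 47 probe sets shared by CELSR3, a cadherin of planar cell polarity, and its neighbour SLC26A6 had 13 higher and 3 lower, with a median of 0.27. The 35 shared by PCDH11X and PCDH11Y had 3 higher and 18 lower, with a median of -0.48. Over all probe sets used for the gene values, 26.4% were higher and 19.0% lower. These counts were not tested, and no excess of higher probe sets is read from them.

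In a search chosen after seeing the data, 4370 genes had at least 20 probe sets, and 293 of them had a run of at least 10 consecutive probe sets higher in both Doxy arrays and at least 10 others. The run exceeded the other probe sets by over 2 on the log2 scale in 2 of these genes, PCDH15 (2.57) and FANCA (2.17).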
